A study of Mus musculus with 6 samples.

Results

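The miRNAs of the miR-297, miR-466, miR-467 and miR-669 families were examined in the mouse aorta. Every mouse assay with such a number in its name was taken, whatever its letter or strand, which gave 31 of the 596 mouse miRNA assays: 3 for miR-297, 8 for miR-466, 10 for miR-467 and 10 for miR-669. In the mouse, most of these miRNAs are encoded in an intron of Sfmbt2, an imprinted gene for a Polycomb protein that is needed in the placenta. The cluster has expanded by tandem duplication in rodents, so that many of its genes differ by few bases, and its hairpins hold dinucleotide repeats. Like other hairpin precursors, they are cut to the mature form by Dicer.

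Whole aortas of 3 EC-Dicerflox and 3 EC-DicerWT mice were compared, to see how the loss of Dicer in endothelial cells (ECs) changes vascular miRNAs. EC-Dicerflox mice carried VE-Cadherin-CreERT2 with both alleles of Dicer1 floxed, and EC-DicerWT littermates carried the same Cre with wild-type Dicer1. Both groups were Apoe-/- and received tamoxifen at 2 mg per 20 g body weight on 5 days. At 6 to 8 weeks of age they went on a high-fat diet with 21% fat and 0.15% cholesterol, which lasted 4 weeks. The labels call the mice male and the methods call them female. The VE-cadherin promoter directs the recombinase to ECs, while the RNA came from all cells of the vessel, so fewer cells of a type and less RNA per cell cannot be told apart, and Dicer in smooth muscle and leukocytes was not targeted. The level of Dicer1 mRNA was not analysed here.

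Each value is a CT, the PCR cycle at which the signal of an assay crosses its threshold. A lower CT means more product, and wells without signal are listed at a CT of 40. Between assays the CT also depends on how well each assay amplifies, so the order of CT values below is an order of assays and not of RNA copies. Between 375 and 415 of all miRNA assays had a CT under 40 in a sample. Replicate 3 of both groups stood apart: over the 350 miRNAs detected (CT under 40) in every sample, the CT of replicate 3 lay above the mean of replicates 1 and 2 by a median of 1.67 cycles in EC-Dicerflox and 0.94 cycles in EC-DicerWT mice. The smooth muscle miRNAs miR-143 and miR-145 had CT values from 14.7 to 18.1, both strands of the endothelial miR-126 had values from 17.1 to 23.0, and all 4 leukocyte miRNAs (miR-142-3p, miR-142-5p, miR-150 and miR-223) were detected in all samples. The red blood cell miR-451 had CT values from 20.4 to 23.6, and 3 of 6 striated muscle assays were detected in all samples, with CT values from 18.4, and 2 in none.

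Sequences are shown for the assays whose genes lie outside the intron, among them miR-467F, which had the lowest CT, and miR-669n. Mature sequences were found for 5 of the 31 assays in RefSeq (GRCm38.p6), and all of these lie outside Sfmbt2. They are given 5′ to 3′ with the seed, bases 2 to 8, in capitals.
miR-466k: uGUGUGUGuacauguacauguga
miR-466J: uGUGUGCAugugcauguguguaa
miR-467F: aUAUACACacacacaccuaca
miR-467H: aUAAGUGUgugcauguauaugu
miR-669n: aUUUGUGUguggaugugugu

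These lie at chr3:85467396-85467418 on the plus strand (miR-466k), chr10:60960802-60960824 on the plus strand (miR-466J), chr11:69635419-69635439 on the minus strand (miR-467F), chr9:115381898-115381919 on the plus strand (miR-467H) and chr3:115979905-115979924 on the plus strand (miR-669n). The 5 seeds are all different, so a shared number did not mean a shared seed among these 5. Of the mature miRNAs searched, only miR-668-5p shared a seed with them, that of miR-467H. No mature sequence was matched by name to the other assays of the set. Whether those share a seed or a repeat length with the 5 was therefore not seen, and the shares below are of the sequences found. Each holds a dinucleotide repeat, of A and C in miR-467F and of U and G in the other 4. A single dinucleotide repeats over 12 bases in miR-467F, a length that 3 of 1679 mature miRNAs (0.179%) reach, and over 9 bases in miR-466k, which 12 (0.715%) reach. The repeat spans 8 bases in miR-669n and 7 bases in miR-466J and miR-467H. miR-467F, rich in A and C, can pair with miR-466k, rich in U and G, over a stretch of 10 bases, and miR-466J and miR-467H share an identical stretch of 11 bases.

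By name, 30 of the 31 assays matched a RefSeq gene. The search took gene symbols in which a letter or dash follows the number, so a symbol of the bare number was not counted. It found 80 miRNA genes, of which 70 lie within the span of Sfmbt2 on chromosome 2: 5 of Mir297, 22 of Mir466, 14 of Mir467 and 29 of Mir669. The genes of 24 assays lie in Sfmbt2 only, and miR-297a* has genes there and on chromosome 7. The genes of 5 assays lie elsewhere only. Of these, Mir466k (chromosome 3) overlaps Gm31419, Mir669n (chromosome 3) overlaps Slc30a7, a zinc transporter gene, and Mir467f (chromosome 11) overlaps Fxr2, which encodes an RNA-binding protein, while Mir466j is on chromosome 10 and Mir467h on chromosome 9. No gene was matched to miR-466a-3p by this search. Whether these genes lie in introns or exons was not examined. The name of the intron cluster therefore does not hold for 5 of the assays, and they are pointed out below.

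Most of the 31 assays gave a signal in the aorta, but many near the detection limit. A CT under 40 was found in at least 1 sample for 28 assays (90.3%) and in all 6 samples for 17 (54.8%). The same shares over all 596 assays were 77.3% and 58.7%. Detection differed between the 2 cards of the array, which are told apart by the form of their assay numbers: in all 6 samples, 6 of 9 assays of the set on card A (66.7%) and 11 of 22 on card B (50%) were detected, against 68.4% and 46.4% of all assays of those cards. Of the 186 wells, 139 had a CT under 40 and 22 of these lay at 35 or above, and with a limit of 35 the counts were 25 in at least 1 sample and 14 in all. The 17 assays detected in all samples had mean CT values from 23.7 to 34.4 with a median of 28.9, against a median of 27.2 over the 350, and by card the medians were 28.1 (A) and 29.6 (B) against 26.1 and 29.0. The imprinted region between Dlk1 and Dio3, which also holds many miRNAs, was detected in all samples by 42 of 61 assays (68.9%), also with a median CT of 28.9. The assays of miR-290 to miR-295, which are known from embryonic stem cells, were detected in all samples in 1 of 17 cases. These shares were not tested against each other.

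Detection differed between the numbers, which are spread unevenly over the cards: 5 of 10 miR-467, 1 of 8 miR-466, 1 of 10 miR-669 and 2 of 3 miR-297 assays are on card A. All 6 samples had a signal for 8 of 10 miR-467 assays, 4 of 8 miR-466 assays, 4 of 10 miR-669 assays and 1 of 3 miR-297 assays. No sample had a signal for miR-466E-5P, miR-467e* and miR-669G. By sample, 25, 26 and 19 of the 31 assays were detected in EC-Dicerflox replicates 1, 2 and 3, and 24, 24 and 21 in EC-DicerWT replicates 1, 2 and 3. Replicate 3 was the lowest of its group in both.

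**Figure D1:**
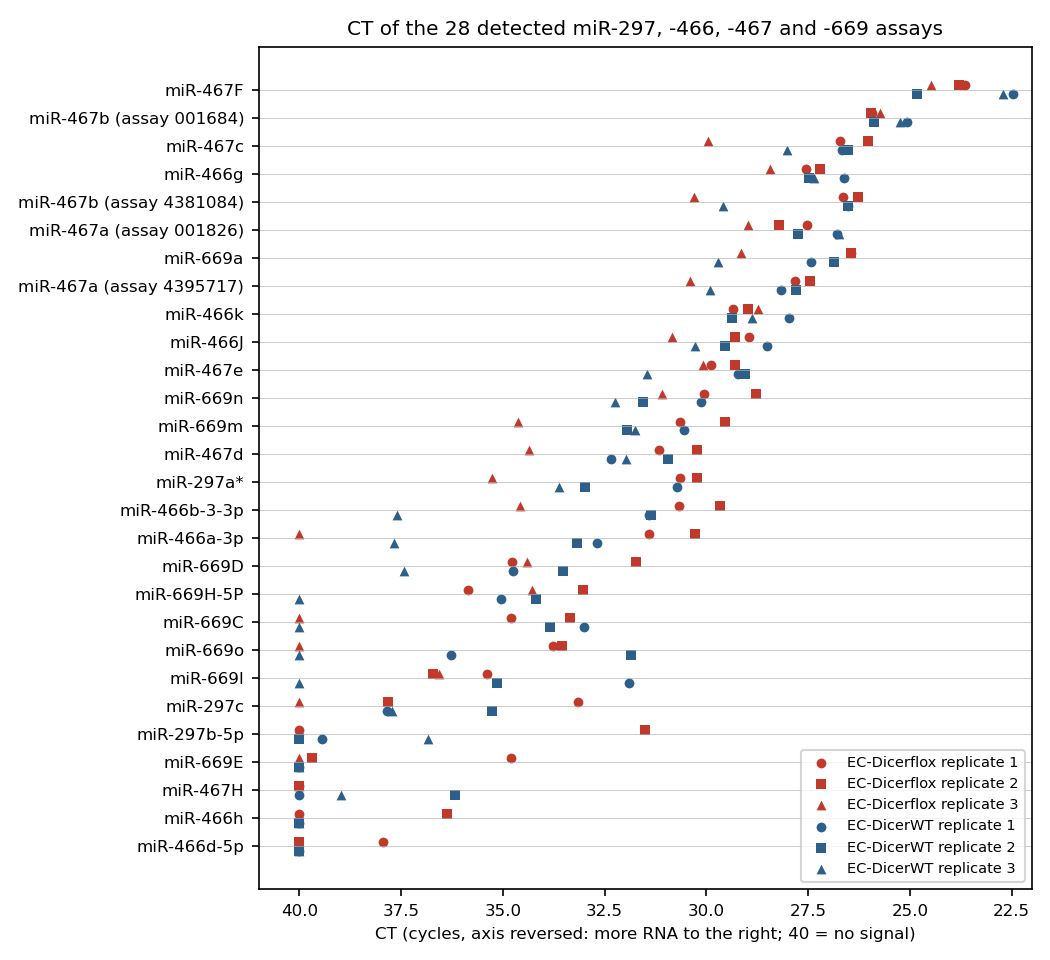
CT of the 28 assays detected in at least 1 sample (cycles, axis reversed so that more signal lies to the right), with EC-Dicerflox samples in red, EC-DicerWT samples in blue, a symbol per replicate and wells without signal at 40. miR-467F and the miR-467b assay 001684 have the lowest values, and many triangles, replicate 3, lie to the left of the other symbols of their assay.

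miR-467 assays had the lowest CT values of the set. miR-467F, whose gene lies outside Sfmbt2, had CT values of 23.7, 23.8 and 24.5 in EC-Dicerflox and 22.5, 24.8 and 22.7 in EC-DicerWT mice, and ranked 91 of all 596 assays. Its groups overlapped, with the highest value and both lowest values in EC-DicerWT mice. Within Sfmbt2, the miR-467b assay 001684 came next, with 25.9, 26.0 and 25.7 in EC-Dicerflox and 25.1, 25.9 and 25.2 in EC-DicerWT mice, a range of less than 1 cycle. miR-467c had a mean CT of 27.3 and ranged from 26.0 to 29.9. miR-467e had a mean of 29.8 (range 29.1 to 31.4) and miR-467d of 31.8 (range 30.2 to 34.4). The opposite strand of the miR-467e hairpin, miR-467e*, stayed at 40 throughout. miR-467H, whose gene lies outside Sfmbt2, was detected in 2 EC-DicerWT and 0 EC-Dicerflox samples.

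Among miR-466 assays, miR-466g had the lowest CT, with 27.6, 27.2 and 28.4 in EC-Dicerflox and 26.6, 27.5 and 27.4 in EC-DicerWT mice, and the groups overlapped. miR-466k and miR-466J, which lie outside Sfmbt2, had mean values of 28.9 (range 27.97 to 29.4) and 29.6 (range 28.5 to 30.8). miR-466b-3-3p varied most of the 17, with 30.7, 29.7 and 34.6 in EC-Dicerflox and 31.4, 31.4 and 37.6 in EC-DicerWT mice. Its 2 highest values were those of replicate 3. miR-466a-3p was detected in 2 EC-Dicerflox and 3 EC-DicerWT samples, and miR-466h and miR-466d-5p each in 1 EC-Dicerflox sample. Assays of neighbouring genes could differ in detection: Mir466g and Mir466h are genes 64 and 65 in the order along Sfmbt2, and the assay of the first, on card B, was detected in 6 samples and that of the second, on card A, in 1. Gene and assay cannot be told apart here.

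Of the miR-669 assays, miR-669a had the lowest CT, with 26.5, 26.4 and 29.1 in EC-Dicerflox and 27.4, 26.9 and 29.7 in EC-DicerWT mice. Its name matches 12 genes, all within Sfmbt2, and its CT cannot be divided among them. miR-669n, outside Sfmbt2, had values of 30.1, 28.8 and 31.1 in EC-Dicerflox and 30.1, 31.6 and 32.2 in EC-DicerWT mice. miR-669m ranged from 29.5 to 34.6 and miR-669D from 31.7 to 37.4. The remaining miR-669 assays were detected in part of the samples: miR-669H-5P and miR-669l in 3 EC-Dicerflox and 2 EC-DicerWT samples, miR-669C and miR-669o in 2 of each group, and miR-669E in 2 EC-Dicerflox and 0 EC-DicerWT samples. miR-297a* had CT values of 30.7, 30.2 and 35.3 in EC-Dicerflox and 30.7, 33.0 and 33.6 in EC-DicerWT mice. miR-297c was detected in 2 EC-Dicerflox and 3 EC-DicerWT samples, and miR-297b-5p in 1 and 2.

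**Figure D2:**
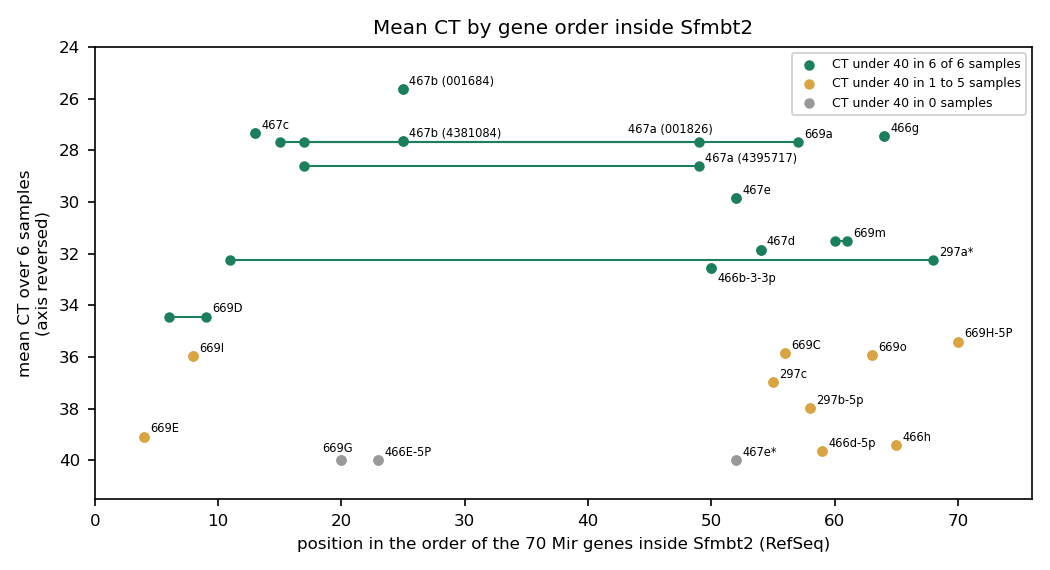
Mean CT over 6 samples (axis reversed, so more signal is higher) against the position of the matching gene in the order of the 70 miRNA genes counted within Sfmbt2. A line joins the first and last gene where an assay matches several genes, and colours give the number of samples with a CT under 40. Assays detected in all samples lie from position 6 to 68, beside assays detected in few samples.

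To compare the groups, the CT of U6 and snoRNA135 (mean of 4 values per sample) was subtracted, which gives the delta CT. The delta CT of EC-DicerWT mice minus that of EC-Dicerflox mice is the log2 fold change, so a positive value means a higher level in EC-Dicerflox mice. limma was fitted to the 461 miRNAs detected in 1 or more samples, 28 of them from the set. At an unadjusted p under 0.05, 1 of the 28 was higher in EC-Dicerflox mice and 0 were lower, against 1.08% (higher) and 1.95% (lower) of all miRNAs tested. After Benjamini-Hochberg adjustment 0 of the 28 passed in limma, as did 0% of all miRNAs, the smallest adjusted p over all being 0.508. Of the 17 detected in all samples, the groups did not overlap on the delta CT for 1, which was higher in EC-Dicerflox mice, against 6.86% (higher) and 5.43% (lower) of the 350. These shares are of the size of the background.

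The single assay was miR-669n. Its delta CT was 11.2, 10.1 and 10.9 in EC-Dicerflox and 11.3, 12.6 and 12.6 in EC-DicerWT mice, so that all EC-Dicerflox samples had a higher level than all EC-DicerWT samples, by 0.16, 2.54 and 1.77 (log2) within replicates 1, 2 and 3. The groups were thus 0.16 apart at their nearest samples, replicate 1 of each. The log2 fold change was 1.49 ± 0.52 (SE, n = 3 per group), with an unadjusted limma p of 0.0323, an adjusted p of 0.923 and an exact two-sided permutation p of 0.1, the smallest that 3 against 3 samples can give. The unadjusted limma p was 0.0790 with the replicate number as a block and 0.0652 with U6 alone as the reference, where the groups overlapped. It was 0.0931 without EC-Dicerflox replicate 2, 0.0625 without EC-Dicerflox replicate 3, 0.0958 without EC-DicerWT replicate 2 and 0.0940 without EC-DicerWT replicate 3. The summed relative level of the endothelial miR-126 strands also did not overlap, from 1.05 to 1.72 (log2) in EC-Dicerflox and from 0.84 to 0.91 in EC-DicerWT mice, and its part in the difference of miR-669n was not tested. The summed levels of the smooth muscle, leukocyte, red blood cell and striated muscle miRNAs overlapped. Of the 350 single miRNAs, 6.86% were higher in EC-Dicerflox mice without overlap.

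The lowest-CT assay of each number did not pass the test. miR-467F had a log2 fold change of -0.49 ± 0.79 (SE; unadjusted limma p = 0.562, exact permutation p = 0.6). Its standard error was larger than its difference, and leaving out single samples moved it in both directions. The fold change was -1.32 without EC-DicerWT replicate 2, with an unadjusted limma p of 0.0284, and 0.07 without EC-DicerWT replicate 3, with an unadjusted limma p of 0.937. miR-466g had -0.42 ± 0.33 (unadjusted limma p = 0.254, exact permutation p = 0.3), and -0.66 without EC-DicerWT replicate 2 and -0.28 without EC-DicerWT replicate 3. miR-669a had 0.81 ± 0.70 (unadjusted limma p = 0.297, exact permutation p = 0.4), with differences of 1.06, 0.19 and 1.18 within replicates 1, 2 and 3. Its fold change was 0.20 without EC-DicerWT replicate 3, 1.29 without EC-DicerWT replicate 2 and 1.23 without EC-Dicerflox replicate 3. miR-297a* had 0.54 ± 1.18 (unadjusted limma p = 0.664, exact permutation p = 0.8). Its fold change was -0.09 without EC-Dicerflox replicate 2 and 1.68 without EC-Dicerflox replicate 3.

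Medians by number are given as a description, and the difference between numbers was not tested. Over the 17 assays detected in all samples the median log2 fold change was -0.04, with 7 above and 10 below 0. Over the 350 it was 0.10, with 197 above and 153 below 0. The median of the 17 was 0.66 without EC-Dicerflox replicate 3. The 4 miR-669 assays had a median of 1.15 with 3 above 0, and miR-669n, outside Sfmbt2, is 1 of them. The 8 miR-467 assays, which hold miR-467a and miR-467b 2 times each, had a median of -0.19 with 2 above 0. The 4 miR-466 assays had a median of -0.11 with 1 above 0. Under the 6 other references and with CT values above 35 set to 35, the miR-669 median lay between 0.88 and 1.23, the miR-467 median between -0.35 and -0.10 and the miR-466 median between -0.27 and -0.03. When 1 sample was left out, the miR-467 and miR-466 medians changed sign, reaching 0.19 and 0.16, while that of miR-669 stayed between 0.55 and 1.40. The fitted assays include those at 40 in some samples. Of these, 6 of 9 miR-669, 2 of 9 miR-467, 4 of 7 miR-466 and 3 of 3 miR-297 assays had a positive fold change, against 251 of all 461 miRNAs. The medians over these fitted assays were 0.81 (miR-669), -0.32 (miR-467), 0.77 (miR-466) and 0.54 (miR-297), and 0.16 over all 28, so that for miR-466 and for the whole set the sign differed from that over the assays detected in all samples. Apart from miR-669n, no assay behind these medians passed the unadjusted threshold in limma.

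**Figure D3:**
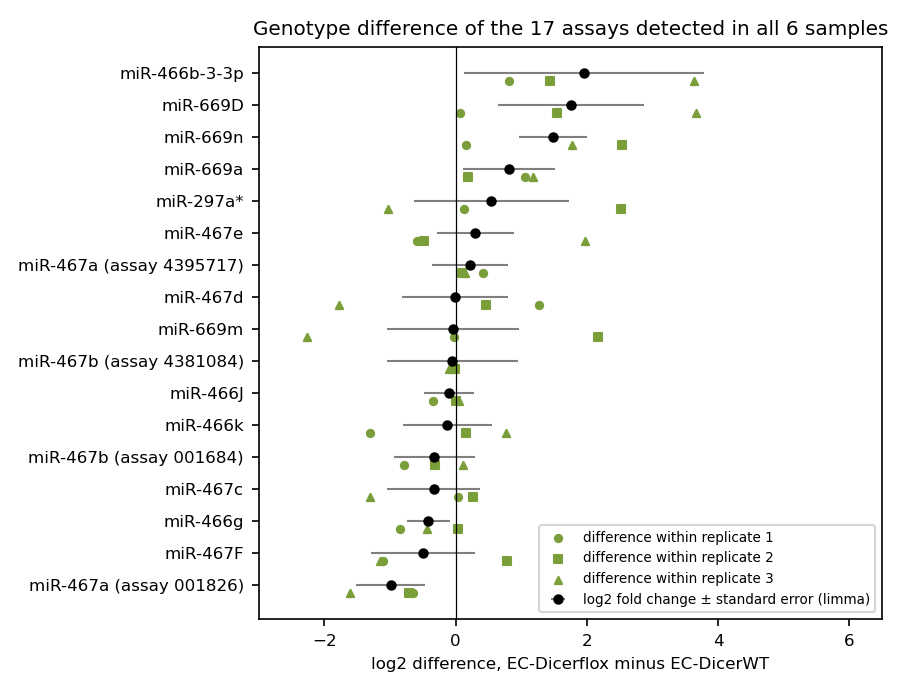
Log2 difference between EC-Dicerflox and EC-DicerWT mice for the 17 assays detected in all 6 samples. Black points are the log2 fold change with its standard error from limma, and green symbols are the differences within replicates 1, 2 and 3. The green symbols all lie above 0 for miR-669n, miR-466b-3-3p, miR-669D, miR-669a and the miR-467a assay 4395717, and all below 0 for the miR-467a assay 001826 and, by under 0.1, the miR-467b assay 4381084. Replicate numbers are tied to no litter or day in the sources used here, so these are not known to be differences of matched mice. The same count over all miRNAs was not made, and equal signs were not tested.

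The assays differed in how far replicate 3 lay from the other replicates. The CT of replicate 3 exceeded the mean of replicates 1 and 2 by a median of 1.72 cycles in EC-Dicerflox and 1.40 cycles in EC-DicerWT mice over the 17 assays, with quartiles of 1.05 and 3.67 in the first and 0.31 and 2.30 in the second group. The quartiles over all 350 were 1.2 and 2.31, and 0.37 and 1.44. The CT of the control RNAs was higher in replicate 3 too, by 0.75 (U6) to 2.72 (Y1) cycles in EC-Dicerflox and by 0.32 (U6) to 1.46 (Y1) cycles in EC-DicerWT mice. The assays fell on both sides of the controls. With limits set after the values were seen, the rise stayed under 1.2 cycles in both groups for 5 of the 17 (29.4%), namely miR-466g, miR-466k, miR-467F, the miR-467a assay 001826 and the miR-467b assay 001684, against 22% of the 350. It was over 2.5 cycles in EC-Dicerflox and over 1.9 cycles in EC-DicerWT mice for 4 of the 17 (23.5%), namely miR-466b-3-3p, miR-669a, the miR-467a assay 4395717 and the miR-467b assay 4381084, against 7.71% of the 350. All 5 assays with the small rise are among the 11 of card B, and 3 of the 4 with the large rise are among the 6 of card A, while the small rise was found in 21.8% of all card A and 22.3% of all card B miRNAs and the large rise in 7.86% and 7.44%. No test was made of these shares, and since the limits were set on these values, the shares cannot measure how far the set differs from the 350.

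**Figure D4:**
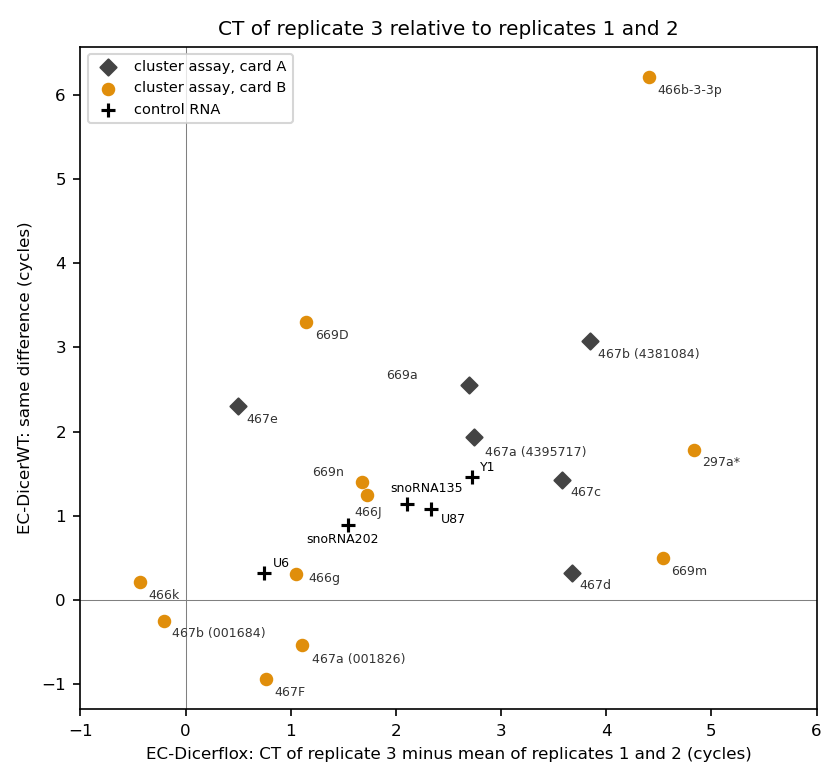
CT of replicate 3 minus the mean of replicates 1 and 2 in EC-Dicerflox (horizontal) and EC-DicerWT mice (vertical), in cycles, for the 17 assays detected in all samples and the control RNAs. Card A and card B are the 2 cards of the array. The controls lie between 0.75 and 2.72 on the horizontal axis, and the assays spread wider on both axes.

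Assays of the same miRNA name parted along this axis. miR-467a and miR-467b each occur on 2 assays, 1 from each card, and 13 names in all occur on 2 assays. What separates the assays of a name is not given in the sources used here, and whether they read the same RNA was not tested. The miR-467b assay 4381084 had CT values of 26.7, 26.3 and 30.3 in EC-Dicerflox and 26.5, 26.5 and 29.6 in EC-DicerWT mice. It exceeded assay 001684 by 0.72, 0.33 and 4.57 cycles in EC-Dicerflox and by 1.45, 0.64 and 4.36 cycles in EC-DicerWT mice. The gap was thus widest in replicate 3 of both groups. For miR-467a, assay 4395717 had 27.8, 27.5 and 30.4 in EC-Dicerflox and 28.2, 27.8 and 29.9 in EC-DicerWT mice, and assay 001826 had 27.5, 28.2 and 29.0, and 26.8, 27.8 and 26.7. The difference between them was again largest in replicate 3, at 1.42 cycles in EC-Dicerflox and 3.18 cycles in EC-DicerWT mice. U6, which is on both cards, had a CT in replicate 3 higher by 0.36 cycles on card A and 1.14 cycles on card B in EC-Dicerflox mice, and by 0.37 and 0.27 cycles in EC-DicerWT mice. The genotype differences of the paired assays were -0.05 ± 1.00 and -0.32 ± 0.62 (log2, SE) for miR-467b, and 0.22 ± 0.57 and -0.99 ± 0.53 for miR-467a, assays of card A first, and none passed the unadjusted threshold in limma.

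The assays did not move as 1 block over the 6 samples. Over all pairs of the 17 assays, the median Pearson correlation of the delta CT was 0.12 with quartiles of -0.50 and 0.56, and over all 61075 pairs of the 350 it was 0.08 with quartiles of -0.33 and 0.47. These values are a description, since all pairs share the 6 samples, the reference RNAs and the distance of replicate 3 from the others. On the CT as deposited the medians were 0.56 for the set and 0.74 for all pairs. Within card A the median was 0.56 over the 15 pairs of the set, against 0.13 over all pairs of that card, and within card B it was 0.03 over 55 pairs, against 0.05. With replicates 1 and 2 alone the median over the set was 0.07, against 0.10 over all pairs. The reference moved these values: the median over the set was -0.09 with snoRNA135 alone, against 0.11 over all pairs, and 0.32 with U6 alone, against 0.48.

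**Figure D5:**
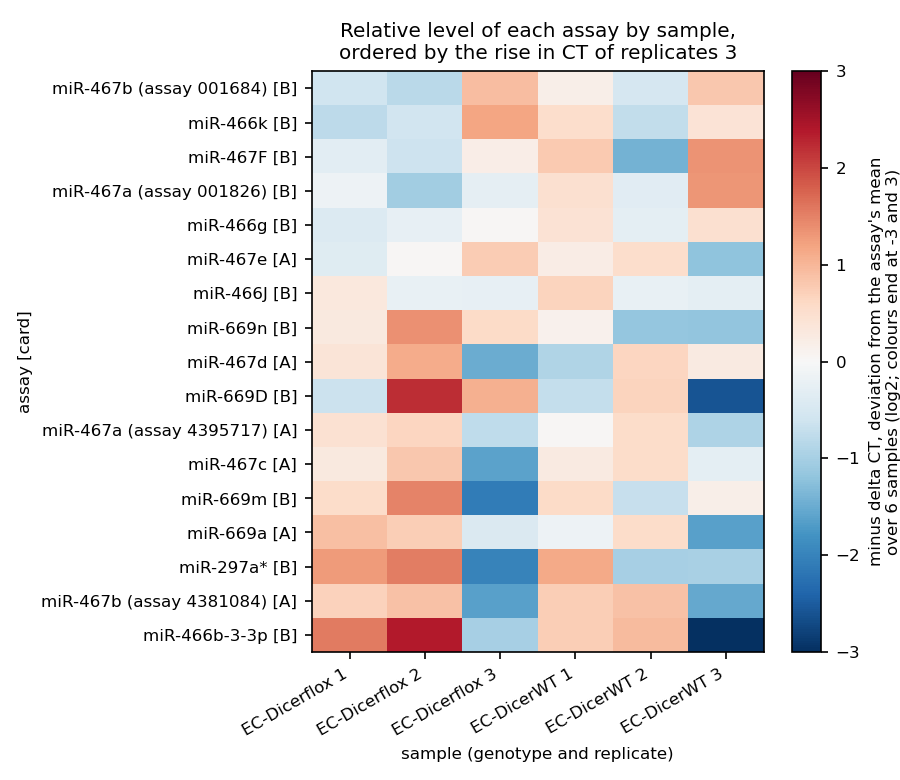
Level of each of the 17 assays in each sample relative to the mean of that assay over the 6 samples (minus delta CT, log2, red higher and blue lower, colours ending at -3 and 3), ordered by the rise in CT of replicate 3. The columns of replicate 3 hold the lowest levels of some assays, such as miR-466b-3-3p, and levels at or above the mean in others, such as miR-466k.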

How the data were processed

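Total RNA of 6 aortas was reverse-transcribed with TaqMan rodent primer pools, pre-amplified and run on TaqMan array cards. The raw CT values per assay are as the authors deposited them, not normalized; how threshold and baseline were set is not given in the sources used here. All 6 columns were matched to samples by name, with 0 unused. The cards (335 and 261 assays) were told apart by the form of the assay numbers.

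Delta CT values were fitted with limma 3.58.1 (lmFit, eBayes) in R 4.3.3, with Benjamini-Hochberg adjustment over 461 miRNAs. The fit was tested on simulated data. Single values were compared by exact two-sided permutation (20 arrangements). With 3 arrays per group, p-values measure the spread between mice. Values per sample are given for miRNAs with an unadjusted p under 0.05, with groups apart, or with the lowest CT of their number; others were added for their replicate 3 values after these were seen. The members and lists were chosen with earlier results of these data known. Same-numbered samples deviated together (r = 0.150, 0.224 and 0.431 for numbers 1, 2 and 3, over 350 miRNAs), each over 0.1, so the numbers were treated as pairs in the block. Differently numbered samples reached 0.285 (EC-Dicerflox replicate 1 with EC-DicerWT replicate 2) and 0.117 (2 with 1), so only replicate 3 was set apart by its number, and the groups were littermates, but no replicate number is tied to a litter or day in the sources used here. Alternatives were other references, treatments of wells at 40, filters, models, the replicate block and leaving out each sample. The fit of replicates 1 and 2 only was chosen after seeing the data. Gene positions were matched by name to RefSeq.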

Additional observations from a re-analysis of the deposited data

How the results depend on the processing

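The number of miR-297, miR-466, miR-467 and miR-669 assays with an adjusted limma p under 0.05 was 0 under all alternatives. The number with an unadjusted p under 0.05 was 1, and it was 0 with U6 alone, with the ordinary linear model and with the replicate block, and between 0 and 2 when each sample was left out. In the main limma fit, 1.08% (higher) and 1.95% (lower) of all miRNAs had such a p. The shares under the alternatives are not given, so those counts have no background beside them. The number whose groups did not overlap was 1 of 17 (12.3% of all miRNAs, both directions), 0 with U6 alone (6.86%), 8 of 23 with replicates 1 and 2 only (37.5%), and between 1 and 6 when each sample was left out, with 6 of 19 without EC-Dicerflox replicate 3 (25.2%) and 5 of 17 without EC-DicerWT replicate 2 (23.3%), fewer samples making overlap rarer in all miRNAs. The median log2 fold change was -0.04, and between -0.10 and 0.66 when each sample was left out. The median pairwise correlation was 0.12, -0.0925 with snoRNA135 alone, 0.32 with U6 alone and 0.56 on the CT as deposited. For miR-669n, the unadjusted limma p was also 0.0518 with the ordinary linear model and 0.147 with replicates 1 and 2 only, and its log2 fold change lay between 1.18 and 1.92 when each sample was left out. That of miR-297a* lay between -0.09 and 1.68 and that of miR-467F between -1.32 and 0.07, and both changed sign, miR-297a* without EC-Dicerflox replicate 2 (-0.0870) and miR-467F without EC-DicerWT replicate 3 (0.0654). The cause was not tested. The replicate block changed no other call of a named miRNA. Of 100 fold changes of named miRNAs under the alternatives, 89 kept direction and side of the threshold. The 8 that no longer passed it were all of miR-669n, the only named miRNA under it in the main fit. Changes of filter or model leave the fold change of an assay detected in all samples as it is, so the 89 are no measure of stability. CT values above 35 and those of assays detected in part of the samples are the least certain.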
